A study of Mus musculus with 29 samples.

Results

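The genes described here are 9 components of bone morphogenetic protein (BMP) signalling, of 23337 genes counted in the mouse series. They were chosen by name: 5 BMP ligands (Bmp2, Bmp4, Bmp5, Bmp6 and Bmp7), 3 type I receptors (Bmpr1a, Bmpr1b and Acvr1) and 1 type II receptor (Bmpr2). The rule uses their names and no measured value, although the choice was made with earlier results of these data known. BMP ligands are secreted dimers of the TGF-beta family. They bind a complex of type I and type II receptor kinases, in which the type II receptor activates the type I receptor, and the type I receptor phosphorylates Smad1, Smad5 and Smad9. In the trunk of the vertebrate embryo BMPs from the lateral plate, the surface ectoderm and the dorsal neural tube act on the paraxial mesoderm, and antagonists such as Noggin limit their reach.

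RNA was sequenced from 29 libraries of E9.0 mouse embryos on a C57BL/6 background, in 8 groups. DIR (n = 4) was presomitic mesoderm of embryos with a Dll1-YFP lineage mark, cultured with LDN and SAG, and CTRL (n = 4) was the same material cultured without them. LDN blocks the kinases of BMP type I receptors, and SAG is an agonist of Smoothened, the transducer of Hedgehog signals; the labels describe the pair as inducing sclerotome. Uncultured YFP-positive cells of the Dll1 lineage were sorted from 4 trunk levels: SOMA (n = 3) from presomitic mesoderm with the newest somite, SOMB (n = 4) from somites 2 to 5, SOMC (n = 4) from somites 6 to 9, and SOMD (n = 4) from somite 10 onwards. The last somite in SOMD differs by library in the labels, between 13 and 16. MUT (n = 3) and WT (n = 3) were trunk tissue from which RNA was extracted directly, with no sort stated, although another label calls them paraxial mesoderm. The mutation is not given in the sources used here. PEAT, a long non-coding RNA named in the title, had 0 counts in all 3 MUT libraries and 25, 18 and 61 counts in the 3 WT libraries. Nothing in the labels says whether libraries of a group came from separate embryos, pools or litters, so the p-values measure only the spread between these libraries, which may be technical.

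Gene counts per library ran between 11541131 and 44363411. Summed over 7 presomitic mesoderm genes the level was 525 to 798 CPM (TMM-scaled counts per unit of library size) in SOMA and 26.9 to 76.3 CPM in the libraries of SOMB, SOMC and SOMD. Lateral plate and heart markers were also present in every SOMA, SOMB, SOMC and SOMD library, at 101 to 277 CPM summed over the 7 of 8 listed genes that are in the files. Embryonic globin and other erythroid markers summed to 1471 to 2694 CPM in MUT and 965 to 2274 CPM in WT, and to at most 84.5 CPM in any other library. SOMC1 and SOMC4 were nearly identical, with a chi-square per degree of freedom of 1.95 over 13768 genes, and so were SOMD1 and SOMD4, with 1.91 over 13612 genes; the other pairs within SOMC and SOMD gave 9.24 to 21.2. The 4 libraries were kept apart in the tests, and the results for SOMC and SOMD are also given with each near-identical pair summed. In MUT the sex-linked RNA Xist was at 2.14, 1801.5 and 1810.0 CPM, and in WT it was at 2.98, 3.49 and 10.8 CPM, so the sex of the embryos was not balanced between them. Because these are bulk samples, fewer cells of a type and less RNA per cell cannot be told apart.

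The upstream sequences of 3 genes are shown because these genes differed along the somite series. They come from RefSeq, build GRCm38.p6, and each covers the 250 bases before the annotated start of transcription, 5′ to 3′ on the gene's strand. Bmp4 lies on chr14:46390670-46390919 (minus strand), Bmp5 on chr9:75775115-75775364 (plus strand) and Bmpr1b, at the most upstream of its 3 RefSeq starts, on chr3:141982265-141982514 (minus strand), inside the annotated gene. Capitals mark the CAGAC box (GTCTG on the other strand), the short element that Smad proteins bind.
Bmp4: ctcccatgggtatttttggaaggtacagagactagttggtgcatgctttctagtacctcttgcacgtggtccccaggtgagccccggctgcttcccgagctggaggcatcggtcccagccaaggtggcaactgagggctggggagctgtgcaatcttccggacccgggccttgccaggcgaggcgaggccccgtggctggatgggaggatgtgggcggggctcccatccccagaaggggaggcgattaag
Bmp5: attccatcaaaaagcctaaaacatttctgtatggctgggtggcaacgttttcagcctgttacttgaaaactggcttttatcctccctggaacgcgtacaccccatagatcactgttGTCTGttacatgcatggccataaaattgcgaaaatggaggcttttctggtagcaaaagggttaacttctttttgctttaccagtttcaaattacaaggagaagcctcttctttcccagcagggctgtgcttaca
Bmpr1b: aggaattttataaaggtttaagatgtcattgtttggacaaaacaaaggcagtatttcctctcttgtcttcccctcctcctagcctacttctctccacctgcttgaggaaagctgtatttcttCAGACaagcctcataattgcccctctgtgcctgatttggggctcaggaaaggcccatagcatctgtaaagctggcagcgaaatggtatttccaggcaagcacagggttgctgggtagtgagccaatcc

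The box was found in the Bmp5 and Bmpr1b stretches and not in that of Bmp4. Of 32851 upstream stretches of the same length 42.2% hold it on either strand, so it is common. The Smad GC-rich element GGCGCC, which 9.59% of the stretches hold, and the Gli site GACCACCCA (TGGGTGGTC on the other strand), which 0.225% hold, were in none of the 3 stretches. Among the other genes with an entry, Bmpr1a and Bmpr2 each had 1 GGCGCC and Bmp6 had 1 CAGAC box. Acvr1 had none of the 3 motifs. The motifs do not overlap each other in these letters, and a match is a description of the sequence. The GC content was 63.2% for Bmp4, 42.8% for Bmp5 and 46.8% for Bmpr1b. Bmp2 and Bmp7 were not among the 7 genes matched.

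Levels between genes can be compared only per length. On the RPKM scale (CPM per kilobase of exon), Bmp4, a ligand known for ventral and lateral mesoderm, was the most abundant of the 5 ligands in every group. Its mean ran between 7.96 RPKM in WT and 28.4 RPKM in SOMA. Bmp5 and Bmp7, which belong to the same subfamily as Bmp6, came next: Bmp5 between 2.51 RPKM in SOMA and 8.92 RPKM in SOMC, and Bmp7 between 2.32 RPKM in WT and 7.39 RPKM in DIR. Bmp2, the closest relative of Bmp4, was at 0.663 to 2.59 RPKM and Bmp6 at 0.133 to 0.379 RPKM. Bmpr1a, the broadly expressed type I receptor for BMP2 and BMP4, was at 28.7 to 52.2 RPKM. Acvr1, the type I receptor also called ALK2, was at 4.87 to 8.94 RPKM, and Bmpr1b, the type I receptor known for its role in cartilage of the limb, at 0.338 to 2.96 RPKM. Bmpr2, the type II receptor, was at 1.64 to 2.10 RPKM.

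The make-up of the ligands was taken as shares of their summed RPKM. Bmp4 made 79.7 ± 2.34% (SD, n = 3) of ligand RPKM in SOMA, 65.2 ± 4.60% in SOMB, 61.5 ± 3.38% in SOMC and 51.4 ± 3.90% in SOMD (n = 4 each). Bmp5 made 6.95%, 18.0%, 23.2% and 23.7% along the same levels. The share of Bmp7 was 9.36%, 12.8%, 12.1% and 21.7%. In culture Bmp7 made 19.5 ± 2.10% in DIR and 9.61 ± 1.55% in CTRL (SD, n = 4 each), and its shares did not overlap between these groups. Bmp7 made 19.7% in MUT and 14.0% in WT. Bmpr1a made 80.5 to 85.5% of type I receptor RPKM in every group, while the share of Bmpr1b ran between 0.979% in CTRL and 6.997% in SOMD.

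**Figure D1:**
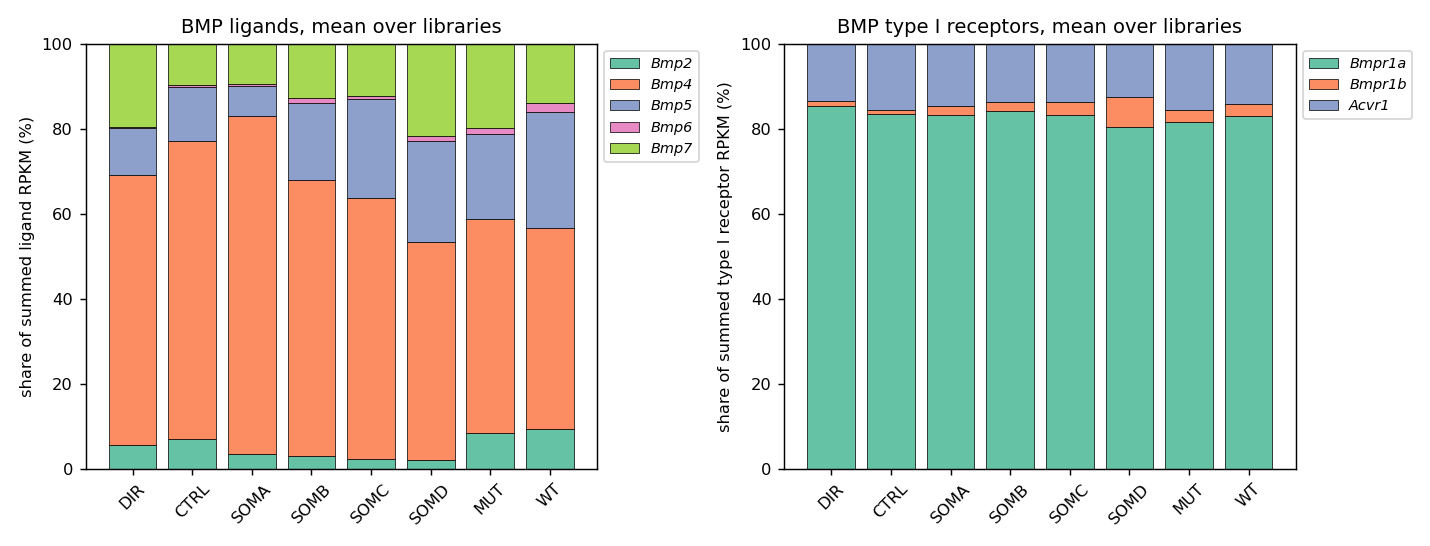
Shares of summed RPKM (%, y axis) of the 5 ligands (left) and the 3 type I receptors (right) in the 8 groups, as stacked bars of group means over 3 or 4 libraries. Bmp4 takes 47.5 to 79.7% of the ligand RPKM and Bmpr1a 80.5 to 85.5% of the type I receptor RPKM.

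The order of the groups differed by gene, and neighbours in that order mostly overlapped. Bmpr1b had the widest spread of group means, with a ratio of 8.77 between SOMD and CTRL. Next came Bmp2, with a ratio of 3.90 between CTRL and SOMD, Bmp4 with 3.57 between SOMA and WT, Bmp5 with 3.55 between SOMC and SOMA, and Bmp7 with 3.19 between DIR and WT. Bmp6, the least abundant of the 9 per length, had a ratio of 2.86 between SOMD and DIR. Acvr1 and Bmpr1a were highest in WT, with ratios of 1.84 against DIR and 1.82 against CTRL. Reads aligned at more than 1 place made 40.1 to 40.6% in MUT and 38.8 to 39.6% in WT, against at most 25.4% in any other group. In ratios that use WT, tissue and this difference between libraries therefore cannot be told apart. Bmpr2 had the narrowest spread, 1.28 between SOMA and SOMB, and each of its 7 pairs of neighbouring groups overlapped, as did those of Bmp2 and Bmp6. For Bmp7 the gap between SOMD and SOMC and that between SOMA and WT held no overlap, so DIR and SOMD (means of 29.7 and 28.8 CPM) stood together above every other group.

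**Figure D2:**
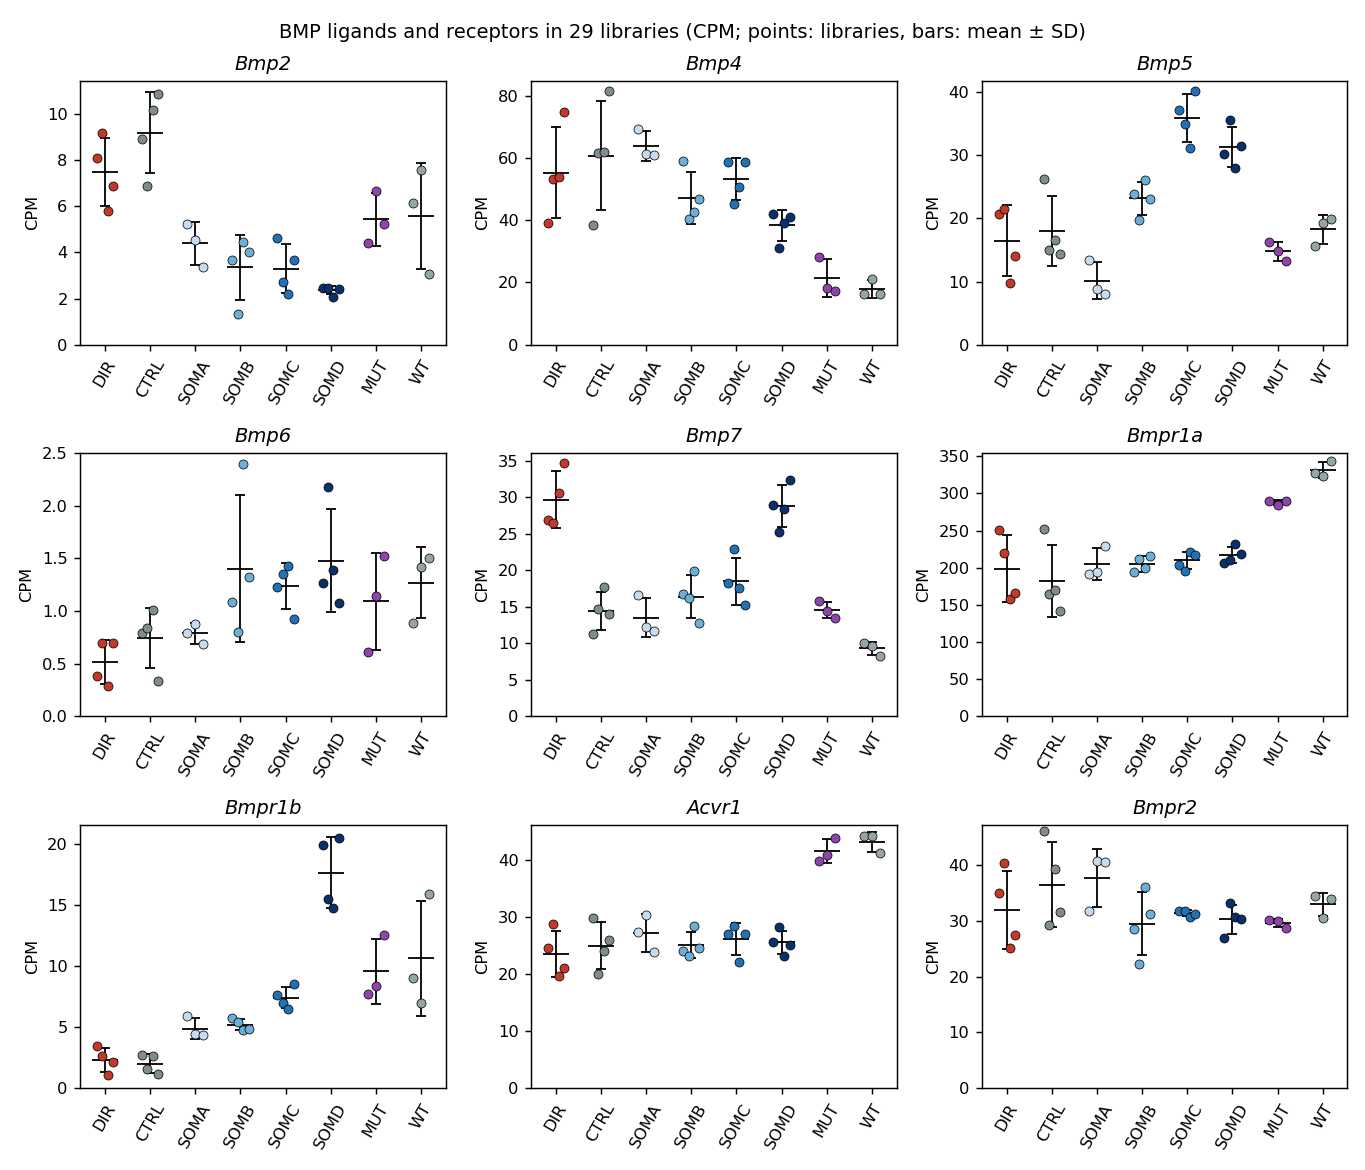
CPM (y axis) of each gene in each of 29 libraries, by group; points are libraries and the black bars show mean ± SD over 3 or 4 libraries. DIR and SOMD stand above the other groups for Bmp7, SOMD has the highest mean for Bmpr1b but overlaps WT, and MUT and WT stand above the sorted and cultured groups for Bmpr1a and Acvr1.

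The first question was how LDN and SAG in culture affect these genes; the agents were given together, so the effect of each cannot be told apart. Bmp7 was higher in DIR than in CTRL, and the other 4 ligands and the 4 receptors did not pass the test. Bmp7 had 26.9, 26.5, 30.6 and 34.8 CPM in DIR, against 11.3, 14.7, 17.8 and 14.1 CPM in CTRL. Every DIR library lay above every CTRL library. The log2 fold change was 1.02 ± 0.17 (SE), with an adjusted p of 0.0269 by edgeR's quasi-likelihood test with Benjamini-Hochberg adjustment. Thus 1 of the 9 genes was called, against 0.747% of 14190 genes tested in this comparison (0.303% higher and 0.444% lower). The call was lost when 1 of 6 libraries was left out: without CTRL2, CTRL4, DIR1, DIR2, DIR3 or DIR4 the adjusted p was 0.0958, 0.110, 0.0516, 0.0547, 0.0587 and 0.0893, with a log2 fold change between 0.94 and 1.07.

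Reads that aligned at several places also made up different shares of these libraries, 22.3 to 25.4% in DIR1, DIR2 and CTRL1 and 15.9 to 19.5% in the other 5. Within the libraries of high share the log2 difference of mean levels of Bmp7 was 1.20 (2 DIR against 1 CTRL library), and within those of low share it was 1.06 (2 DIR against 3 CTRL libraries). Without CTRL1, DIR1 and DIR2 the fold change was 1.07 ± 0.15 and the adjusted p 0.00457. Markers of sclerotome and of neighbouring tissues moved with the treatment, where 0.747% of all genes tested were called (0.303% higher and 0.444% lower). Of the lateral plate and heart list 5 of 6 genes tested were lower in DIR, and the summed level was 46.9 to 72.7 CPM in DIR, against 142 to 232 CPM in CTRL. Nkx2-5 was at 0 in all DIR libraries and at most 0.0439 CPM in CTRL, too low in both groups to compare. The intermediate mesoderm list had 1 of 5 genes lower and summed to 21.8 to 47.4 CPM in DIR, against 57.7 to 89.2 CPM in CTRL, with no gene at 0. Of the neural tube list 1 of 6 genes was higher, with sums of 28.6 to 50.6 CPM in DIR and 18.0 to 27.9 CPM in CTRL. Of 3 sclerotome genes tested 1 was higher. The sclerotome list summed to 88.1 to 146 CPM in DIR and 49.8 to 135 CPM in CTRL. Pax1, of that list, was at 8.90 to 37.0 CPM in DIR, against 0.927 to 1.95 CPM in CTRL. The dermomyotome and myotome list had 1 of 3 genes tested lower. It summed to 10.6 to 23.8 CPM in DIR and 28.6 to 44.2 CPM in CTRL. The part of these markers in the difference of Bmp7 was not tested.

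Among the ligands that did not pass, Bmp4 had 39.2, 53.1, 53.7 and 74.7 CPM in DIR, against 38.4, 61.5, 61.7 and 81.3 CPM in CTRL. These ranges almost coincided. Bmp2 averaged 7.50 ± 1.47 CPM in DIR and 9.20 ± 1.76 CPM in CTRL (SD, n = 4 each), and Bmp5 averaged 16.5 ± 5.62 CPM in DIR and 18.0 ± 5.55 CPM in CTRL. Bmp6 had the lowest CPM of the 9 genes, at 0.290 to 0.697 CPM in DIR and 0.338 to 1.01 CPM in CTRL. The receptors overlapped as well. Bmpr1a averaged 199 ± 44.6 CPM in DIR and 182 ± 48.1 CPM in CTRL, Acvr1 23.5 ± 4.03 CPM in DIR and 25.0 ± 4.08 CPM in CTRL, and Bmpr2 31.9 ± 6.996 CPM in DIR and 36.5 ± 7.65 CPM in CTRL. Bmpr1b was at 1.11 to 3.47 CPM in DIR and 1.14 to 2.69 CPM in CTRL. Over the 8 genes that did not pass, the log2 fold change lay between -0.51 and 0.22, and none had an unadjusted p under 0.05. The ranges of Bmpr1a, Bmpr2, Bmp5 and Acvr1 were wide within each group, and for Bmpr1a the highest values were in CTRL1 (252 CPM) and in DIR1 and DIR2 (251 and 220 CPM), the libraries with the high share of such reads.

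The genes around these 9 in the pathway changed in several classes. Their counts stand beside 0.747% of all genes called in DIR against CTRL (0.303% higher and 0.444% lower). The lists behind the following counts group genes by function, and 4 genes (Smad6, Smad7, Smad9 and Bambi) stand in 2 of them. Of the BMP targets, 6 of 15 tested were lower in DIR and 0 higher, with a median log2 fold change of -1.77 against -0.01 over all genes. Id2, an inhibitor of bHLH factors, was at 13.4 to 30.5 CPM in DIR, against 173 to 187 CPM in CTRL (log2 fold change -3.15 ± 0.23, edgeR adjusted p = 6.46e-04). The homeobox gene Msx2 fell to 5.04 CPM on average in DIR, against 24.0 CPM in CTRL (-2.27 ± 0.21, edgeR adjusted p = 0.00161). Smad9, itself a receptor-activated Smad, was at 0.774 to 1.51 CPM in DIR and 8.66 to 16.7 CPM in CTRL (-3.63 ± 0.30, edgeR adjusted p = 9.61e-04). Bambi, a pseudoreceptor that lacks the kinase domain, fell by 1.11 on the log2 scale. The inhibitory Smad7 fell by 1.38. With Smad9 and Smad7, 2 of 13 Smad proteins and regulators passed, both lower.

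Of 14 BMP antagonists tested 1 was lower and 1 higher, beside the 0.747% of all genes called. Gremlin (Grem1), a secreted antagonist of BMP2, BMP4 and BMP7, was at 0.372 to 0.732 CPM in DIR, against 15.5 to 24.9 CPM in CTRL (log2 fold change -5.07 ± 0.28, edgeR adjusted p = 1.29e-04). Nbl1, an antagonist of the DAN family, was at 10.8 to 17.5 CPM in DIR, against 2.69 to 2.85 CPM in CTRL (2.33 ± 0.18, edgeR adjusted p = 6.46e-04). Of 16 other BMP family ligands only 3 were tested, and Bmp3, a ligand known to counter other BMPs, rose to 31.9 ± 11.5 CPM in DIR, against 2.97 ± 0.479 CPM in CTRL (SD, n = 4 each). Bambi was the 1 gene of 12 other receptors and co-receptors that passed, and none of 6 processing proteases did. For Id2, Msx2, Smad9, Bambi, Smad7, Grem1, Nbl1 and Bmp3 the DIR and CTRL libraries did not overlap. These genes were named because they passed on the same libraries, so the lack of overlap adds no separate support.

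**Figure D3:**
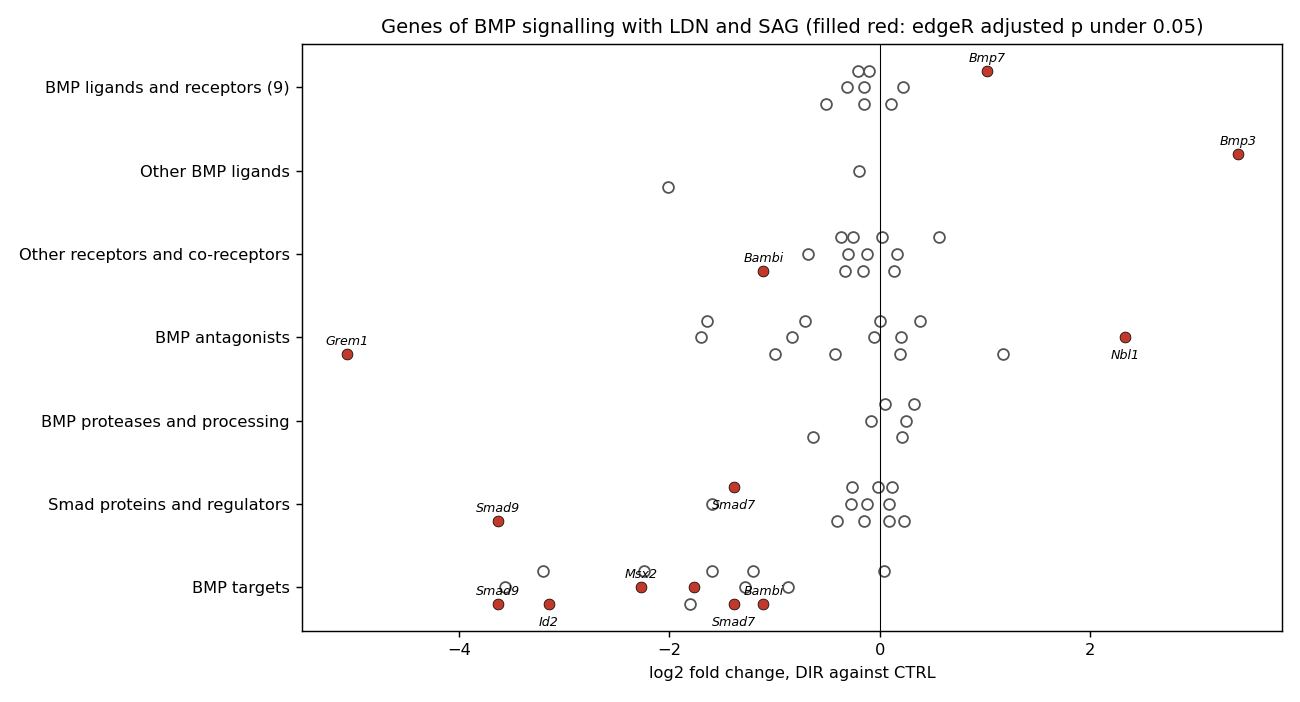
Log2 fold change (x axis) of the 9 genes and of the members of 6 pathway lists in DIR against CTRL; filled red points passed the edgeR test at an adjusted p under 0.05, and all but 1 of them carry their name. Vertical offsets within a list only separate points. Of the BMP targets 6 of 15 lie left of 0 and passed, while 1 of the 9 ligands and receptors passed, to the right.

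The next question was how these genes change along the paraxial mesoderm as somites mature. The comparisons between trunk levels share groups and one model, so their differences are not independent of each other. Between the oldest and the youngest level 4 of the 9 genes passed: Bmp5, Bmp7 and Bmpr1b were higher in SOMD than in SOMA, and Bmp4 was lower. In this comparison 19.8% of 13790 genes tested were called (10.8% higher and 8.92% lower). These 4 calls held in each of 14 alternative settings, the near-identical libraries summed among them.

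Bmp5, a ligand whose loss gives the short-ear skeleton in mice, had 13.5, 8.82 and 8.04 CPM in SOMA, 23.9, 19.7, 26.1 and 23.2 CPM in SOMB, 37.2, 35.0, 31.2 and 40.1 CPM in SOMC, and 30.2, 35.6, 28.0 and 31.5 CPM in SOMD. Each SOMB library lay above each SOMA library, and each SOMC library above each SOMB library, while SOMD overlapped SOMC. Bmp5 was 1.17 ± 0.16 higher on the log2 scale in SOMB than in SOMA (edgeR adjusted p = 1.96e-04), the 1 gene of the 9 called against 8.67% of all genes tested (4.13% higher and 4.55% lower). It was 0.64 ± 0.14 higher in SOMC than in SOMB (edgeR adjusted p = 0.0450), again the 1 gene of 9 called, against 0.827% of genes (0.486% higher and 0.341% lower). That second step was close to the threshold, and the adjusted p was 0.208 with near-identical libraries summed, 0.0609 with library totals unscaled, 0.314 with all groups in 1 fit, and 0.0735 to 0.167 without SOMB1, SOMB2, SOMB4, SOMC1, SOMC2 or SOMC4. SOMD against SOMA gave 1.61 ± 0.16 (edgeR adjusted p = 3.34e-06). The exons of Bmp5 overlap those of an antisense gene, Gm26903, which is not among the genes counted, over 1878 of 4025 bases, and without strand the reads of both cannot be told apart.

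Bmpr1b had 5.89, 4.41 and 4.33 CPM in SOMA, 5.75, 5.45, 4.79 and 4.85 CPM in SOMB, 7.63, 7.03, 6.50 and 8.58 CPM in SOMC, and 19.9, 15.5, 14.8 and 20.5 CPM in SOMD. SOMA and SOMB overlapped, SOMC lay above both, and every SOMD library was above every library of the younger levels. SOMD exceeded SOMC by 1.25 ± 0.14 on the log2 scale (edgeR adjusted p = 4.11e-04) and SOMA by 1.85 ± 0.16 (edgeR adjusted p = 7.31e-07). With near-identical libraries summed the difference of SOMD and SOMC was 1.23 ± 0.17, with an adjusted p of 0.00894. The near-identical SOMD1 and SOMD4 carried the higher values in SOMD, and SOMC1 and SOMC4 those in SOMC.

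Bmp7, a ligand known for its roles in kidney, eye and skeleton, had 16.6, 12.2 and 11.7 CPM in SOMA, 16.7, 16.2, 19.9 and 12.8 CPM in SOMB, 18.3, 22.9, 17.6 and 15.3 CPM in SOMC, and 28.98, 25.3, 28.5 and 32.4 CPM in SOMD. The 3 younger levels overlapped, and SOMD stood above them. SOMD exceeded SOMC by 0.65 ± 0.15 (edgeR adjusted p = 0.0316) and SOMA by 1.09 ± 0.17 (edgeR adjusted p = 1.67e-04). Bmp7 and Bmpr1b were thus the 2 genes of 9 called in SOMD against SOMC, against 2.34% of genes tested (1.26% higher and 1.07% lower). For Bmp7 this last step was lost with near-identical libraries summed (0.59 ± 0.18, adjusted p = 0.250) and without SOMC1, SOMC3, SOMC4, SOMD1, SOMD3 or SOMD4 (adjusted p of 0.0524 to 0.144).

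Bmp4 went the other way. It had 69.4, 61.1 and 60.8 CPM in SOMA, 59.1, 40.4, 42.7 and 46.7 CPM in SOMB, 58.6, 45.1, 50.5 and 58.7 CPM in SOMC, and 41.9, 31.0, 39.1 and 41.1 CPM in SOMD. SOMA lay above every other level, and SOMD below SOMC. SOMD against SOMA gave -0.73 ± 0.13 (edgeR adjusted p = 9.01e-04). The steps between neighbouring levels missed the threshold in the reported test, at -0.44 ± 0.13 for SOMB against SOMA (edgeR adjusted p = 0.0538) and -0.47 ± 0.13 for SOMD against SOMC (edgeR adjusted p = 0.0660). Bmp4 passed in 3 of 14 other settings for SOMB against SOMA and in 3 of 15 for SOMD against SOMC. Replicate numbers paired the libraries of these 2 steps by their deviations, and with the number as a block the values were -0.37 ± 0.06 for SOMB against SOMA (edgeR adjusted p = 0.00195) and -0.48 ± 0.04 for SOMD against SOMC (edgeR adjusted p = 3.81e-05). In that block the near-identical SOMC1 and SOMC4, and SOMD1 and SOMD4, count as separate libraries; with each pair summed and no block, SOMD against SOMC gave -0.46 ± 0.15 (edgeR adjusted p = 0.313). The block fits used only the 2 groups compared, while the reported test fitted all 4 levels together. The effect of the block alone was therefore not tested. In the block fits Bmpr2 also passed in SOMB against SOMA (-0.23 ± 0.07, edgeR adjusted p = 0.0404). Bmp5 passed there in SOMD against SOMC (-0.21 ± 0.06, edgeR adjusted p = 0.0407), so that 3 and 4 of the 9 genes were called. Over all 13365 genes tested with the block in SOMB against SOMA, 1268 were higher and 1177 lower, against 569 and 627 in the reported test. In SOMD against SOMC the block fit gave 1075 and 1100 of 13243 genes, against 174 and 148 in the reported test.

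**Figure D4:**
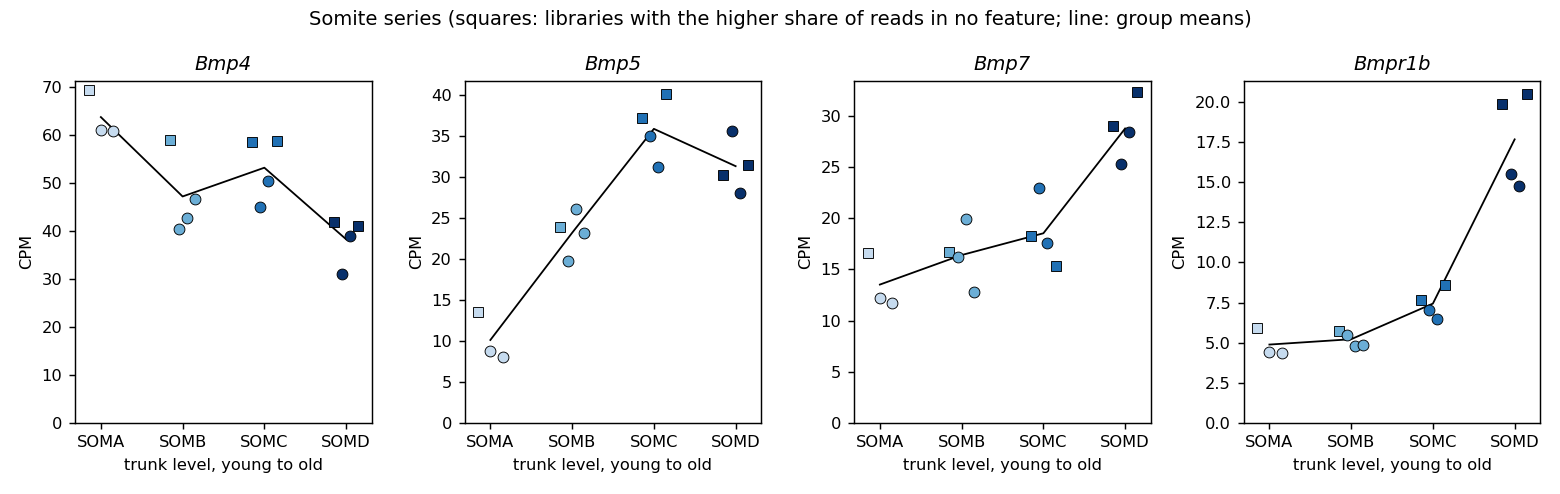
CPM (y axis) of Bmp4, Bmp5, Bmp7 and Bmpr1b in the 15 uncultured libraries by trunk level, young to old; squares mark the 6 libraries with the higher share of reads in no feature and lines join group means. Bmp5 is higher by SOMB, Bmp7 and Bmpr1b are highest in SOMD, and Bmp4 is lowest there.

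The other 5 genes did not pass the reported edgeR test between levels. Among other settings Bmpr2 passed in 3 of 14 for SOMB against SOMA. For SOMD against SOMA Bmp2 and Bmpr2 each passed in 2 of 14. Bmp2 averaged 4.398 ± 0.939, 3.37 ± 1.41, 3.31 ± 1.07 and 2.36 ± 0.181 CPM in SOMA, SOMB, SOMC and SOMD (SD, n = 3, 4, 4 and 4), and SOMA did not overlap SOMD. Bmp6 was at most 2.40 CPM in every library. Bmpr1a averaged 205, 205, 210 and 217 CPM along the series and Acvr1 27.2, 25.1, 26.2 and 25.5 CPM, with ranges that overlapped between all levels. Bmpr2 averaged 37.7 ± 5.12 CPM in SOMA and 29.5 to 31.4 CPM at the older levels. In SOMD against SOMA the 5 genes had log2 fold changes between -0.90 and 0.87, and 3 of them an unadjusted p under 0.05, none after adjustment.

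Reads in no feature were more frequent in 6 of the 15 uncultured libraries (SOMD4, SOMD1, SOMC4, SOMC1, SOMB1 and SOMA1, up to 12.8%) than in the other 9, where they made 7.57 to 10.7%. Within the libraries of high share the log2 difference of SOMD and SOMA was 1.17 for Bmp5, 0.86 for Bmp7, 1.69 for Bmpr1b and -0.73 for Bmp4 (2 against 1 library). Within those of low share it was 1.85, 1.13, 1.68 and -0.80 for the same genes (2 against 2 libraries). For SOMD against SOMC the difference of Bmp7 was 0.85 within the high and 0.41 within the low share, and that of Bmpr1b 1.27 and 1.11 (2 against 2 libraries each). The high-share libraries of SOMC and SOMD are the near-identical pairs, SOMC1 with SOMC4 and SOMD1 with SOMD4. Each of these pairs may stand for 1 sample, so the values within the high share hold little replication. Markers of cell types were read along the series too. In SOMD against SOMA 19.8% of all genes tested were called (10.8% higher and 8.92% lower). Counts of 1 or 2 genes in such short lists are too few to set apart from that share. Of the presomitic mesoderm list 7 of 7 genes were lower in SOMD than in SOMA. Of the surface ectoderm and epithelium list 1 of 5 genes was lower in SOMD than in SOMA, and the sum was 76.7 to 148 CPM in SOMD, against 137 to 192 CPM in SOMA. Of the lateral plate and heart list 2 of 7 genes were higher in SOMD than in SOMA, with sums of 123 to 178 CPM in SOMD and 116 to 167 CPM in SOMA. Within that list Gata4 averaged 1.31 CPM in SOMA, 4.33 CPM in SOMC and 23.9 CPM in SOMD. Hand1 averaged 27.9, 70.8 and 27.8 CPM in the same groups. The neural crest list had 1 of 3 genes higher in SOMD and summed to 1.92 to 6.57 CPM in SOMD, against 0.220 to 1.63 CPM in SOMA. The intermediate mesoderm list had 1 of 5 genes lower, with sums of 35.2 to 60.4 CPM in SOMD and 56.1 to 58.1 CPM in SOMA. Of the neural tube list 1 of 6 genes was higher and 2 lower, with sums of 21.4 to 54.0 CPM in SOMD and 29.5 to 46.0 CPM in SOMA. Of 3 notochord and floor plate genes tested 1 was lower, with sums of 2.00 to 5.41 CPM in SOMD and 2.79 to 5.65 CPM in SOMA. Of the sclerotome list 3 of 4 genes were higher in SOMD than in SOMA and 1 lower. The dermomyotome and myotome list had 3 of 4 higher. In SOMD against SOMC 2 of 7 lateral plate and heart genes were higher and 1 lower. There 1 of 5 intermediate mesoderm genes was lower, beside 2.34% of all genes called in either direction. In these lists only Noto, of the notochord list, was at 0 in all libraries of SOMD, and only Myog in all of SOMA. The part of these markers in the differences was not tested.

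The pathway lists are read against the 19.8% of all genes called in SOMD against SOMA, and the called shares of antagonists, other ligands, receptors and Smad genes lay near it. Of 16 antagonists 2 were higher and 2 lower. Cer1, the secreted antagonist Cerberus, was at 35.0 to 39.2 CPM in SOMA, 0.211 to 7.72 CPM in SOMB, at most 0.129 CPM in SOMC and at most 0.0872 CPM in SOMD. Nbl1 was at 3.999, 4.34, 5.05 and 9.25 CPM on average along the 4 levels, and SOMD exceeded SOMC by 0.89 ± 0.18 (edgeR adjusted p = 0.0140). Bmper, a modulator that binds BMPs, was 1.60 ± 0.25 higher in SOMD than in SOMA (edgeR adjusted p = 2.36e-04), and Grem1 was lower, with a log2 fold change of -0.76 ± 0.22 (edgeR adjusted p = 0.0220). Of 5 other ligands tested 1 was higher: Gdf6, a growth factor of joints and skull, at 4.41 to 9.88 CPM in SOMD, against 0.221 to 0.691 CPM in SOMA.

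Of 6 processing enzymes 3 were higher and 2 lower in SOMD than in SOMA. Pcsk6, a proprotein convertase, averaged 12.5 CPM in SOMD and 4.42 CPM in SOMA (log2 fold change 1.49 ± 0.11, edgeR adjusted p = 1.71e-07). Pcsk5, another convertase, was lower (-1.04 ± 0.12, edgeR adjusted p = 1.34e-05), as was Tll2, a tolloid-like protease, with at most 0.107 CPM in SOMD, against 5.35 to 8.01 CPM in SOMA. Of 12 other receptors and co-receptors 3 were higher, among them Rgmb, a BMP co-receptor (0.94 ± 0.08, edgeR adjusted p = 7.13e-07), and the betaglycan gene Tgfbr3 (0.90 ± 0.16, edgeR adjusted p = 6.07e-04). Of 13 Smad proteins and regulators 3 were lower, led by the corepressor Ski (-0.84 ± 0.11, edgeR adjusted p = 5.56e-05). Of 15 BMP targets 4 were higher and 1 lower, with a median log2 fold change of 0.38 against 0.00 over all genes. Id2 was 0.71 ± 0.11 and Id3 0.62 ± 0.12 higher (edgeR adjusted p = 2.57e-04 and 0.00116), and Gata3 was lower (-1.71 ± 0.26, edgeR adjusted p = 1.63e-04).

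CTRL, presomitic mesoderm after culture, was set against SOMA, the uncultured sort that includes it. Both comparisons that use CTRL, and all that use SOMA, share those libraries. CTRL and SOMA also differ in the dissected tissue, so culture and tissue cannot be told apart. Bmp2 was higher and Bmpr1b lower in CTRL, and 2 of the 9 genes were thus called, against 20.8% of 14137 genes tested (12% higher and 8.8% lower; 1694 and 1244 genes, or 2154 and 877 with unscaled library totals). Bmp2 had 8.90, 6.87, 10.2 and 10.9 CPM in CTRL, against 5.25, 4.56 and 3.39 CPM in SOMA. The groups did not overlap (log2 fold change 1.04 ± 0.23, edgeR adjusted p = 0.0122). Bmpr1b had 2.69, 1.56, 2.68 and 1.14 CPM in CTRL, against 5.89, 4.41 and 4.33 CPM in SOMA, again with no overlap (-1.30 ± 0.32, edgeR adjusted p = 0.0190). Bmp2 missed the threshold without SOMA4 (adjusted p = 0.0621), and Bmpr1b without CTRL2, SOMA1 or SOMA4 (adjusted p = 0.0540, 0.0816 and 0.0559).

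Bmp5 was at 14.4 to 26.2 CPM in CTRL and 8.04 to 13.5 CPM in SOMA, and it missed the threshold (0.81 ± 0.26, edgeR adjusted p = 0.0542) although its groups did not overlap. It passed in 8 of 14 other settings. Bmp4 averaged 60.7 ± 17.6 CPM in CTRL and 63.8 ± 4.86 CPM in SOMA, and Bmp7 14.5 ± 2.64 CPM in CTRL and 13.5 ± 2.69 CPM in SOMA. Of the neural tube list 3 of 6 genes were lower, with sums of 18.0 to 27.9 CPM in CTRL and 29.5 to 46.0 CPM in SOMA, and of the somite list 4 of 6 were lower, with sums of 286 to 444 CPM in CTRL and 460 to 561 CPM in SOMA. The intermediate mesoderm list had 1 of 5 genes higher, with sums of 57.7 to 89.2 CPM in CTRL and 56.1 to 58.1 CPM in SOMA. Further, 1 of 5 endothelium genes was higher in CTRL, where the list summed to 131 to 167 CPM, against 29.9 to 127 CPM in SOMA. The 1 gene tested of 4 in the gut and visceral endoderm list was higher, with sums of 6.19 to 12.2 CPM in CTRL and 1.82 to 4.63 CPM in SOMA. Of the lateral plate and heart list 2 of 6 genes were higher, with sums of 142 to 232 CPM in CTRL and 116 to 167 CPM in SOMA. No gene of these 6 lists was at 0 throughout either group, and their part in the differences was not tested. In the pathway lists, 4 of 15 BMP targets were higher and 0 lower in CTRL, beside 20.8% of all genes called in either direction, Id2 by 0.87 ± 0.11 (edgeR adjusted p = 0.00122) and Msx2 by 0.84 ± 0.20 (edgeR adjusted p = 0.0174). Of 15 antagonists 3 were higher and 4 lower, with Cer1 at 5.32 to 11.4 CPM in CTRL, against 35.0 to 39.2 CPM in SOMA.

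In trunk tissue none of the 9 genes passed edgeR's test in MUT against WT, where 0.338% of 14485 genes were called (0.331% higher and 0.0069% lower). At an unadjusted p under 0.05 there were 2, Bmp7 and Bmpr1a, and DESeq2 called the same number. Bmp7 had 15.7, 14.4 and 13.5 CPM in MUT, against 10.0, 9.65 and 8.29 CPM in WT. Each MUT library lay above each WT library (log2 fold change 0.65 ± 0.14, edgeR adjusted p = 0.0678). DESeq2 gave an adjusted p of 0.00404 for it, and edgeR gave 0.166 with Xist as a term. Bmpr1a had 290, 284 and 291 CPM in MUT, against 327, 323 and 344 CPM in WT. MUT was below WT in every pair of libraries, by a narrow margin (-0.20 ± 0.05, edgeR adjusted p = 0.104, DESeq2 adjusted p = 0.0190).

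The other 7 genes overlapped between MUT and WT or lay close together. Bmp5 was at 13.3 to 16.2 CPM in MUT and 15.7 to 19.8 CPM in WT, Bmp4 at 17.3 to 28.3 CPM in MUT and 16.2 to 21.2 CPM in WT, and Bmpr1b at 7.76 to 12.6 CPM in MUT and 6.98 to 15.9 CPM in WT. Bmpr2 was at 28.7 to 30.2 CPM in MUT and 30.5 to 34.4 CPM in WT, without overlap, and it did not pass. Acvr1 averaged 41.5 ± 2.08 CPM in MUT and 43.2 ± 1.72 CPM in WT (SD, n = 3 each). None of the genes in the 6 pathway lists passed the edgeR test in this comparison. The erythroid sums given above overlapped between MUT and WT, and no erythroid gene passed.

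**Figure D5:**
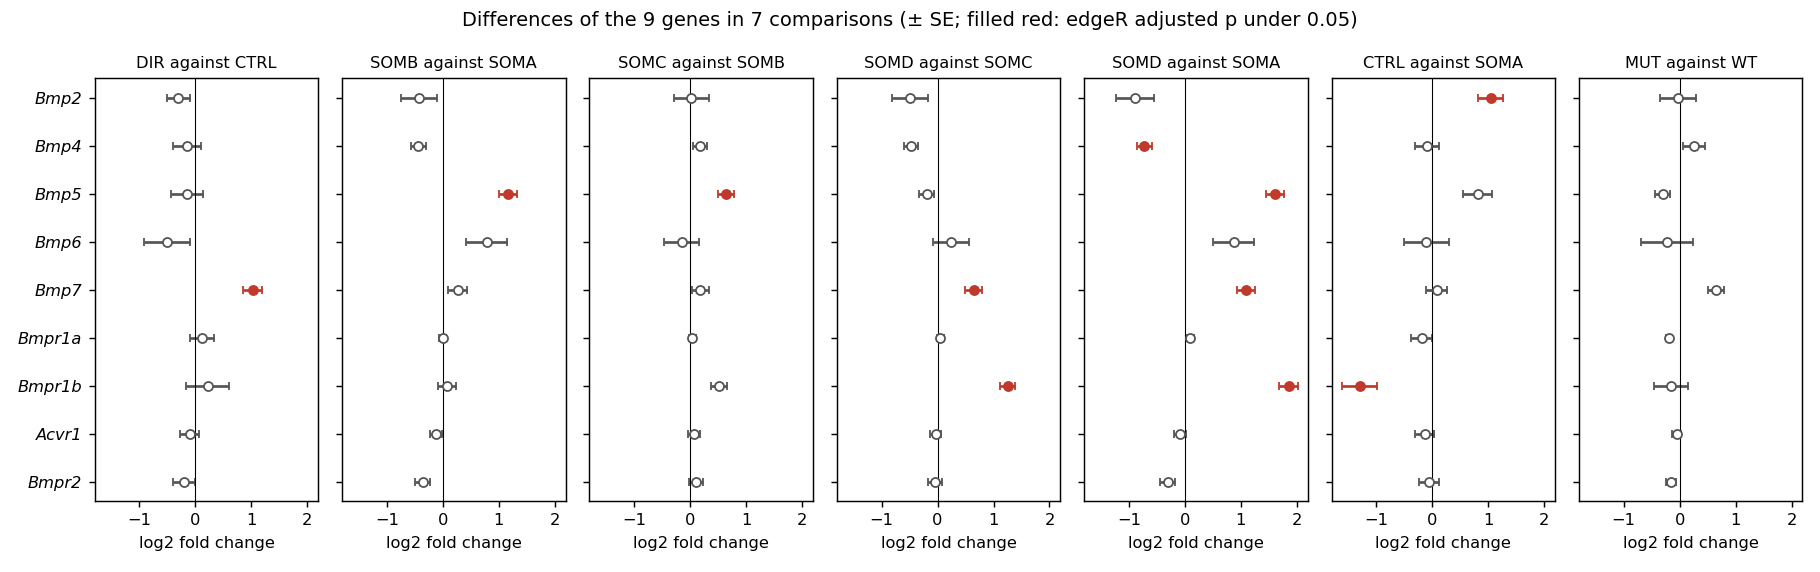
Log2 fold change ± SE (x axis) of the 9 genes (rows) in 7 comparisons (panels); filled red points passed the edgeR test at an adjusted p under 0.05. Bmp7 in DIR against CTRL is at 1.02, and Bmpr1a lies between -0.20 and 0.11 in all 7 panels.

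Across the 8 group means the level of some genes followed that of others, given here as a description of 8 points that each average 3 or 4 libraries. The level of Bmpr1a ran with that of Acvr1 (Pearson r of 0.96 on log2 CPM) and against that of Bmp4 (-0.96). MUT and WT, the unsorted tissue with the highest shares of reads aligned at more than 1 place, lie at the end of both relations. Among 9802 genes ranked, the most like Bmp7 was Abcf3 (0.95), followed by Nbl1 (0.95), the antagonist that also rose in DIR and in SOMD, and Cnp (0.91). Over the 29 libraries these values were 0.61, 0.86 and 0.54. Bmp5 was most like Sfrp1, a secreted Wnt modulator (0.96), then Sdk1 (0.95) and Pla2g4a (0.95). For Bmpr1b the most alike were the protocadherin Pcdhga11 (0.99), Pyroxd1 (0.99) and the semaphorin Sema5a (0.98), and for Bmp4 they were Tubb6, Pdcd2l and Fip1l1 (0.98 each). Bmp2 was closest to Phf13, Atf7ip2 and Cdk18 (0.98 each), and Bmp6 to Pcdh18, Metrn and Prss23 (0.97 each). Acvr1 was closest to Atmin (0.998), then Senp6 (0.998) and Ptar1 (0.997), and Bmpr1a to Lrch2 (0.997), then G2e3 (0.996) and Atad2 (0.996). For Bmpr2 the values were lower, at 0.93 for Chd3, 0.92 for Sgsm1 and 0.91 for Sall4. Over the 29 libraries these 3 fell to 0.20, 0.31 and 0.55. Those of Bmp6 were 0.63, 0.59 and 0.70, and Pyroxd1 was at 0.62 with Bmpr1b. Apart from Bmp7, given above, the other named genes were at 0.78 to 0.97.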

How the data were processed

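Total RNA of 29 libraries was extracted with Trizol and made into libraries with the TruSeq RNA kit, per the labels' protocols, which does not mark strand. The deposited files hold whole-number read counts per gene made by the authors; the submitters' processing notes name TopHat2 2.0.9, Cufflinks, HTSeq 0.6, DESeq2 1.10 and mm10. Neither the annotation nor how these tools were combined is given in the sources used here. The 5 HTSeq summary lines (6.54 to 12.8% of reads in no feature, 0.584 to 1.85% ambiguous, 15.9 to 40.6% aligned at more than 1 place) were left out of gene counts. Groups came from the titles, 1 of which reads CRTL2 and was taken as CTRL2.

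For each of 7 comparisons, genes passing filterByExpr (minimum count 10, minimum total 15) were scaled by TMM, and the quasi-likelihood F test of edgeR 4.0.16 was run (prior count 0.125) in R 4.3.3, with Benjamini-Hochberg adjustment over all genes tested and a threshold of 0.05. The 4 SOM groups were fitted together, the other comparisons each on their 2 groups. All 9 genes passed the filter in every comparison. Levels are CPM scaled over all 29 libraries, and RPKM uses the summed exon length of GENCODE M21 on GRCm38. Within-share differences and likeness used log2(CPM + 0.5). Exons of Bmp4, Bmp5, Bmp6 and Bmpr1a overlap 89, 1878, 224 and 290 bases of a gene on the other strand (Gm15217, Gm26903, Txndc5 and Gm17110), so their counts carry that uncertainty.

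Likeness was ranked by Pearson r over the 8 group means among genes averaging 5 CPM or more, the 3 highest being named. Of each pathway list up to 4 genes past the threshold with the lowest p were named. The genes and lists were chosen with earlier results of these data known. Replicate numbers pair libraries in SOMB against SOMA, where deviations from group means correlated at 0.361 to 0.421 in 3 pairs, and in SOMD against SOMC, at 0.377 to 0.479 in 4 pairs, each over the limit of 0.1. The labels do not state this pairing, which was read from the counts. Libraries were to be counted as 1 sample under a chi-square per degree of freedom of 1.5, which no pair met. Alternatives were RLE size factors, unscaled totals, no filter, DESeq2 1.42.0, all groups in 1 fit, the replicate block, each library left out, near-identical libraries summed, and alignment share or Xist as a term. The replicate block was always fitted on the 2 compared groups alone. Leaving out CTRL1, DIR1 and DIR2 was chosen after seeing the data. The scripts were tested on simulated data.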

Additional observations from a re-analysis of the deposited data

Results flagged for a closer look

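Of 45 sets of levels in groups of 4 libraries, 1 held a library far from the others. Bmp2 was at 2.09 CPM in SOMD3, and the other 3 SOMD libraries lay between 2.43 and 2.47 CPM. The gap to the nearest library was 0.902 of the range of the group. The limit for such a gap is set so that about 1 of 20 groups would pass it by chance. The group mean of 2.36 CPM is the lowest of the 8 groups for Bmp2.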

How the results depend on the processing

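The counts of the 9 genes called in SOMD against SOMA stayed between 4 and 6 under all alternatives. In DIR against CTRL the count was 1 under each of 8 settings other than leaving out a library, and 0 to 1 with each library left out. SOMB against SOMA gave 2 genes by DESeq2, 3 with the replicate block and 1 to 2 with a library left out. SOMC against SOMB gave 0 with unscaled totals, with all groups in 1 fit, with the replicate block and with near-identical libraries summed, and 0 to 1 with a library left out; the cause was not tested. SOMD against SOMC gave 4 with the replicate block, 1 with near-identical libraries summed (fewer samples) and 1 to 3 with a library left out. CTRL against SOMA gave 0 to 4 with a library left out, and no near-identical pair exists in it to sum. MUT against WT gave 2 by DESeq2, 1 with the replicate block (Bmp7, adjusted p = 0.0335) and 0 with each library left out. Numbers did not pair the libraries in DIR against CTRL, SOMC against SOMB, SOMD against SOMA, CTRL against SOMA or MUT against WT. There the block gave 1, 0, 6, 2 and 1 gene. In CTRL against SOMA it took Bmpr1b below the call (edgeR adjusted p = 0.0623) and added Bmp5 (edgeR adjusted p = 0.0374). In SOMD against SOMA the block fit, on those 2 groups alone, also called Bmp2 and Bmpr2. The counts over all genes that give the background moved by over 1.5 times in 6 of the comparisons. In DIR against CTRL they were 43 higher and 63 lower by edgeR, 201 and 295 by DESeq2, and 801 and 681 with all groups in 1 fit. In SOMC against SOMB they were 67 and 47 by edgeR, 158 and 128 by DESeq2, and 11 and 4 with near-identical libraries summed. In SOMD against SOMC they were 174 and 148 by edgeR, 253 and 244 by DESeq2, 20 and 31 with the sums and 1075 and 1100 with the replicate block. In MUT against WT they were 48 and 1 by edgeR and 501 and 254 by DESeq2. With all groups in 1 fit SOMB against SOMA gave 343 and 433 in place of 569 and 627, and CTRL against SOMA 2429 and 2043 in place of 1694 and 1244. With the replicate block these 2 comparisons gave 1268 and 1177, and 588 and 402. SOMD against SOMA stayed within 1.5 times of 1494 and 1230.

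Of 909 values of the 9 genes under alternatives 39 had the other sign, none of them called, and the largest difference among these was 0.22 on the log2 scale in the reported test. No called difference changed direction. Bmp6, at 0.290 to 2.40 CPM, and Bmpr1b in culture rest on few counts, which limits what their values can show.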
